A study of Homo sapiens with 4 samples.

Results

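CD14, CD68, CD163, CD33, CD36, CD4, MRC1, FCN1, VCAN and CLEC7A, 10 genes used as markers of monocytes and macrophages, were followed in MV4-11 cells upon CEBPG knockdown. The members were chosen by gene symbol, and the deposited values of all RefSeq rows with that symbol were summed per library. Of the 10 genes, 9 are listed, with 20 rows, among 16490 genes with values, and MRC1 is not listed. MV4-11 is a human AML cell line with a KMT2A fusion and a monocytic phenotype. The series holds 4 libraries, 2 of cells stably carrying sh-NC, the control hairpin, with CEBPG present, and 2 of cells carrying sh-CEBPG#3, a hairpin against CEBPG. Both groups were infected with pLKO.1-puro lentivirus and selected with puromycin, and the sequenced knockdown rests on a single hairpin. The sources used here do not say whether the 2 libraries with one hairpin stem from independent infections, so the p-values measure the spread between these libraries only, which may be technical. Below, control cells and knockdown cells stand for sh-NC and sh-CEBPG#3, and the values are given in the order replicate 1, replicate 2.

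Monocytes recognise microbes, dying cells and lipids through receptors of several families, and they acquire or raise these receptors as they mature from myeloid precursors into macrophages. CD14 presents lipopolysaccharide to the TLR4 and LY96 complex. CD68, CD163 and CD36 are scavenger receptors, of which CD68 lies mainly in lysosomal membranes, CD163 takes up complexes of haemoglobin and haptoglobin, and CD36 binds oxidised lipoproteins and fatty acids. CD33, CLEC7A and MRC1 are lectins that bind sialic acid, beta-glucan and mannose, respectively. CD4 is the co-receptor of helper T cells and is also carried by human monocytes. FCN1, a soluble ficolin that activates complement, and VCAN, a matrix proteoglycan, are products of classical monocytes rather than receptors. C/EBP factors are among the regulators of this maturation, and CEBPG is a C/EBP protein that lacks a transactivation domain and acts through its dimer partners.

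Values are FPKM, that is fragments per length of exon and per total of mapped reads, so that levels can be compared between genes. Differences are given on the scale of log2(FPKM + 1), which understates the change of genes with low values. The FPKM totals lay between 364353 and 389766, and the depth of the libraries is unknown because the values carry no read counts. Pearson's r across the 12142 genes tested, those whose mean over all libraries reached 0.5 FPKM, was 0.993 to 0.994 within the groups and 0.962 to 0.964 between them. CEBPG had 30.4 and 33.6 FPKM in control cells and 19.2 and 17.1 FPKM in knockdown cells, so 56.8% of the control mean remained (log2 fold change -0.78, adjusted p = 8.88e-05 in limma). All 9 genes taken as markers of the line are listed and were tested, of which 5 rose, CD4 and CD33 among them, and 3 fell, where 42.2% of all genes tested were called in either direction. MEIS1, a homeobox partner of the HOXA factors, fell from 6.65 and 7.34 to 3.42 and 3.29 FPKM (-0.87, adjusted p = 8.31e-05 in limma), HOXA9 fell too (-0.36, adjusted p = 0.0167 in limma), a call lost without sh-CEBPG#3 replicate 2 (adjusted p = 0.168 in limma), with no filter and with the most abundant row of each gene, and FLT3, the receptor kinase of the line, had 62.8 to 75.0 FPKM over the 4 libraries and was not called.

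Of the 250 bases upstream of the start in the RefSeq promoter table, the part that no annotated exon of the gene (GENCODE release 44) reaches is given for 2 of the genes. CD14 is shown because it is the classical monocyte receptor and alone held the C/EBP half-site, and CD33 because it combined a high level with a small difference. The sequences are of build GRCh38.p14 and run 5′ to 3′ on the strand of the gene. Both windows lie inside the annotated span of the gene, downstream of the first base of its longest annotation. Capitals mark matches, on either strand, to ATTGC, the half-site of C/EBP factors, or to GAGGAA, the core of the site of PU.1, a regulator of monocytic genes.
CD14, chr5:140633293-140633425, minus strand: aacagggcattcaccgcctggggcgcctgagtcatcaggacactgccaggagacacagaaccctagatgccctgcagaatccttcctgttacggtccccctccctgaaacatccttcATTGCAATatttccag
CD33, chr19:51224830-51225063, plus strand: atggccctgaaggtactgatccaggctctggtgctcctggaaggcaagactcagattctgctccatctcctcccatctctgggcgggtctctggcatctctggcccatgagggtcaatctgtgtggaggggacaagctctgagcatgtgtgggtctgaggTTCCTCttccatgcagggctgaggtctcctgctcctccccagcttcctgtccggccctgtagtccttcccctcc
The C/EBP half-site matched in CD14, at bases 133 to 129 and 130 to 126 before the start, where the matches on the 2 strands overlap. Among the 7 members with a sequence in the RefSeq table it matched in 1, and 21.3% of all 35116 promoter windows of this length hold it. The PU.1 core matched in CD14 at bases 96 to 91, in CD68 at bases 48 to 43, and in CD33 at bases 90 to 85 and 10 to 5 before the start, of which the first of CD33 lies in the stretch shown. It matched in 6 of the 7 members, and in 8 of their 12 annotated starts, against 23.6% of all windows. CD36 accounts for 6 of these 12 starts. TGATGCAA, the composite site of C/EBP and ATF factors, matched in none of these windows and in 0.772% of all windows. The interferon response element, GAAA and GAAA with any 2 bases between, matched in CD163, at bases 30 to 21 before the start, and in 3.02% of all windows. The motifs and the windows shown were chosen after the values were known, and a match describes letters, not binding.

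Each of the 9 listed genes had higher values in both knockdown libraries than in either control library. Of all 16490 listed genes 29.5% were separated in this direction and 35.1% in the other, and of the genes tested 31.5% and 40.2%. The genes fell into a group of 3 with high levels in every library (CD4, CD68 and CD33), CD36 at an intermediate level, and a group of 5 near the bottom of the table (CD14, CLEC7A, CD163, FCN1 and VCAN). The first 4 had a mean of at least 0.5 FPKM and were tested, and each also passed that level in control cells alone. All 4 rose (adjusted p under 0.05 in limma, Benjamini-Hochberg), against 18.5% of the genes tested that rose and 23.8% that fell, 42.2% in all. With absolute log2 fold change above 1 and an unadjusted p under 0.05, the threshold of the study, 2 of the 4 passed, CD68 and CD36, against 2.36% of the genes tested that passed as higher. The median log2 fold change of the 4 was 0.77 and that of all genes tested was -0.04. In a bulk library, more cells of a mature type and more RNA per cell cannot be told apart.

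**Figure D1:**
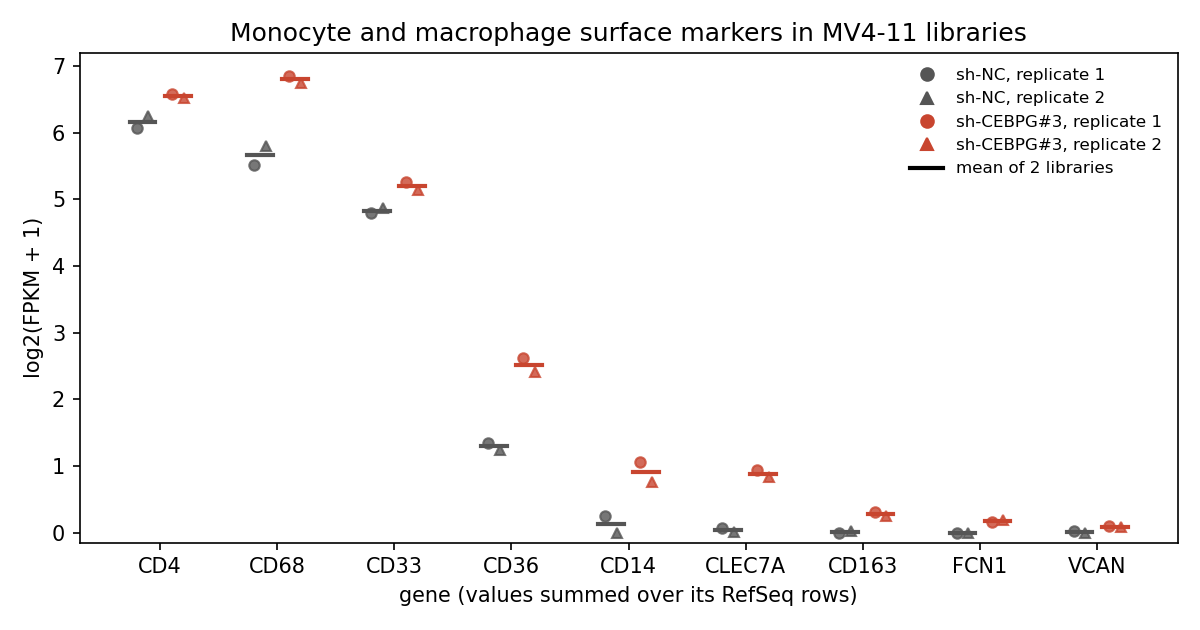
Level of each listed marker in every library, as log2(FPKM + 1) on the vertical axis, with genes ordered by their mean over the 4 libraries. Points are libraries and bars are the means of 2 libraries. In all 9 genes the knockdown libraries lie above the control libraries, and 5 genes stay near or below 1 FPKM in every library.

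CD68 (chromosome 17, 7579638 to 7582111, GRCh38.p14) had 44.7 and 54.9 FPKM in control cells and 115 and 107 FPKM in knockdown cells. The groups did not overlap, and the higher mean was 2.22 times the lower. The means were 49.8 ± 7.20 and 111 ± 5.64 FPKM (SD, n = 2 each). The log2 fold change, with its standard error, was 1.14 ± 0.10 (adjusted p = 1.37e-05 in limma), and 1.70% of the genes tested had a larger one. The difference exceeded the spread within both groups. Without sh-NC replicate 1, the lowest of the 4 libraries, the log2 fold change was 0.998, just under the threshold of the study.

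CD36 (chromosome 7, 80602207 to 80679274) had the largest fold change of the 4 tested markers. It had 1.54 and 1.37 FPKM in control cells and 5.16 and 4.33 FPKM in knockdown cells. The libraries of each group lay close together and far from those of the other group. The mean went from 1.45 ± 0.123 to 4.74 ± 0.589 FPKM (SD, n = 2 each), which is 3.26-fold. The log2 fold change, with its standard error, was 1.22 ± 0.12 (adjusted p = 2.95e-05 in limma), and 1.47% of the genes tested had a larger one. CD36 is also made by platelets and erythroid cells. Of 13 erythroid and platelet markers, 5 are listed, and HBB, ALAS2, PF4 and PPBP are not among them. Their summed level was 43.9 and 44.7 FPKM in control cells and 49.8 and 48.4 FPKM in knockdown cells. Of 4 tested, 2 were called higher and 1 lower, against 18.5% and 23.8% of all genes tested. TFRC made up most of the sum, with 33.7 and 35.1 against 37.6 and 36.1 FPKM, and was not called. EPOR rose from 6.64 and 6.67 to 8.84 and 8.67 FPKM (0.35, adjusted p = 0.00846 in limma). GP9, a platelet glycoprotein, rose from a mean of 0.539 to 2.16 FPKM, while GP1BA, its partner, fell from 2.57 to 1.24 FPKM. ITGA2B, the defining platelet integrin, stayed under 0.138 FPKM in every library. The part of such cells in the level of CD36 was not tested.

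CD4 (chromosome 12, 6789528 to 6820799) was the most abundant marker of control cells, with 66.0 and 74.9 FPKM, and had 95.3 and 90.7 FPKM in knockdown cells. The groups were separate but close. The means were 70.5 ± 6.29 and 93.0 ± 3.23 FPKM (SD, n = 2 each), a ratio of 1.32. The log2 fold change, with its standard error, was 0.40 ± 0.08 (adjusted p = 0.00308 in limma), and 12.2% of the genes tested had a larger one. Taking only the most abundant row of each gene gave 0.32 and the call was lost (adjusted p = 0.0668 in limma). As CD4 also marks T cells, 14 T and NK cell markers were looked up, of which 4 are listed. CD2, CD3D, CD3E, CD3G, CD8A and TRAC have no row, and CD5 stayed at or under 0.0901 FPKM in every library. NKG7, a granule protein of NK and T cells, rose from 42.2 and 42.3 to 53.4 and 55.8 FPKM (0.36, adjusted p = 0.00265 in limma). NCAM1, an adhesion molecule of NK cells, fell from 14.1 and 15.1 to 12.4 and 11.3 FPKM (-0.28, adjusted p = 0.0260 in limma), a call lost without sh-NC replicate 2 (adjusted p = 0.0926 in limma), without sh-CEBPG#3 replicate 2 (adjusted p = 0.168 in limma), with no filter and with the most abundant row of each gene. All libraries were made from the MV4-11 cell line, so these are levels of marker genes in that line and do not count T or NK cells. The relation of these genes to the level of CD4 was not tested.

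CD33 (chromosome 19, 51211076 to 51240016), an inhibitory lectin of myeloid cells, had 26.8 and 28.3 FPKM in control cells and 37.2 and 34.3 FPKM in knockdown cells. Here too no library of a group reached the other group. The means were 27.5 ± 1.05 and 35.8 ± 2.07 FPKM (SD, n = 2 each), a ratio of 1.30. The log2 fold change, with its standard error, was 0.37 ± 0.08 (adjusted p = 0.00424 in limma), and 13.5% of the genes tested had a larger one. The call was lost without sh-CEBPG#3 replicate 1 (0.31, adjusted p = 0.0534 in limma) and with the most abundant row of each gene (0.35, adjusted p = 0.0520 in limma).

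**Figure D2:**
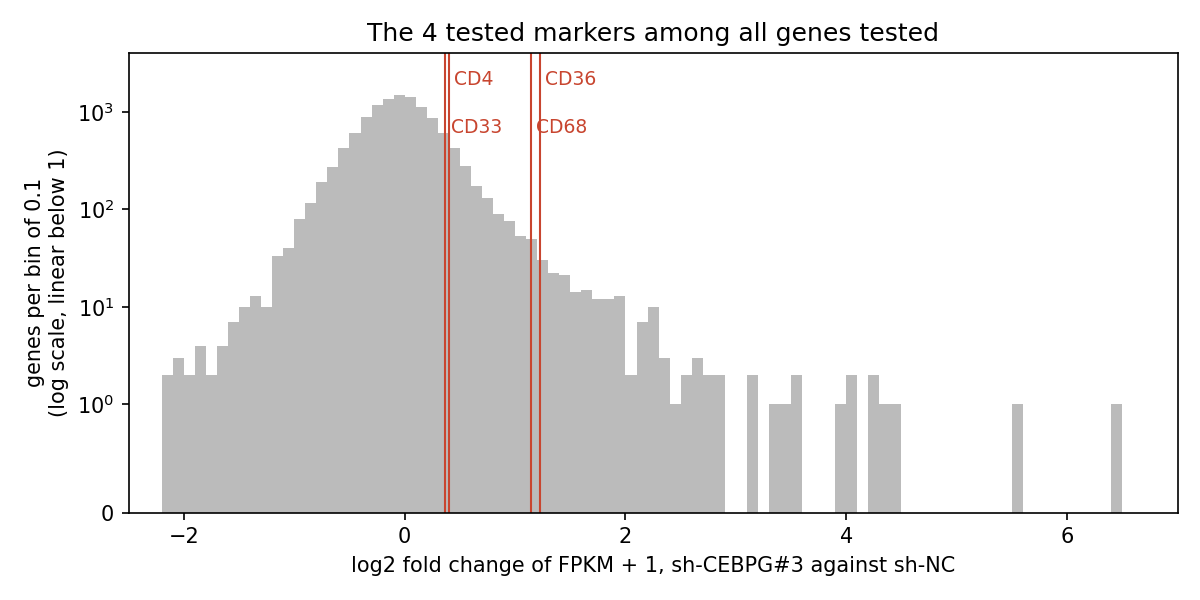
Distribution of the log2 fold changes of the 12142 genes tested, in bins of 0.1 on a vertical axis that is logarithmic above 1 gene, with the 4 tested markers as lines. CD33 (0.37) and CD4 (0.40) lie on the right shoulder of the distribution, and CD68 (1.14) and CD36 (1.22) in its right tail.

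The order of the abundant markers changed between the groups. In control cells CD4 was highest, followed by CD68 and CD33, and their ranges did not overlap. In knockdown cells CD68 was highest, followed by CD4 and CD33, again with no overlap. The ratio of CD68 to CD4 was 0.677 and 0.733 in control cells and 1.20 and 1.18 in knockdown cells. The ratio of CD4 to CD33 was 2.47 and 2.65 against 2.56 and 2.64, so that its groups overlapped. With 2 libraries a group an exact two-sided permutation test of such a ratio cannot give a p below 0.333, so the change of order is a description. CD68 stood above 93.7% of all listed genes by its mean in sh-NC cells and above 97.3% in sh-CEBPG#3 cells, CD4 above 95.7% and 96.7%, and CD33 above 87.6% and 90.7%.

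The other 5 listed markers, CD14, CLEC7A, CD163, FCN1 and VCAN, were low in all libraries. These 5 genes were under the limit for testing, so no fold is given. CD14 (chromosome 5, 140631732 to 140633701) had 0.187 FPKM in sh-NC replicate 1, is listed at 0 in sh-NC replicate 2, and had 1.09 and 0.697 FPKM in knockdown cells. Its mean over the 4 libraries was 0.493 FPKM, just under the limit for testing. CD14 lies within the annotated span of TMCO6 over its whole length of 1970 bases, and TMCO6 had 4.96 and 5.26 FPKM in control cells and 3.21 and 3.34 FPKM in knockdown cells. Whether strand was used to assign the reads is not given in the sources used here, and the overlap is of spans, not of exons. Whether reads of one gene were counted for the other is therefore unknown. TMCO6 was lower in knockdown cells in both libraries. The span of CLEC7A is overlapped over 13528 bases and that of CD33 over 28941 bases by annotated genes that are not listed. CD68, CD163 and VCAN are overlapped by such genes too.

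CLEC7A (chromosome 12, 10116777 to 10130304), the beta-glucan receptor, had 0.0447 and 0.00823 FPKM in control cells and 0.918 and 0.782 FPKM in knockdown cells. On the log2(FPKM + 1) scale its difference, 0.85, and that of CD14, 0.79, were the largest of the 5. CD163 (chromosome 12, 7470811 to 7503777) is listed at 0 and 0.0121 FPKM in control cells and had 0.244 and 0.191 FPKM in knockdown cells. FCN1 (chromosome 9, 134903232 to 134917912) is listed at 0 in both sh-NC libraries and had 0.120 and 0.136 FPKM in knockdown cells. VCAN (chromosome 5, 83471744 to 83582302) had 0.0184 FPKM in sh-NC replicate 1, is listed at 0 in sh-NC replicate 2, and had 0.0676 and 0.0554 FPKM in knockdown cells. All 5 genes thus had their higher pair of values upon knockdown, where 23.8% of the listed genes under the limit for testing were separated in this direction. Even in knockdown cells the highest of them, CD14, stood above 31.3% of the listed genes by its mean, and VCAN above 10.8%. When genes of every level were tested, 8 of the 9 markers had an adjusted p under 0.05 in limma, and VCAN did not (adjusted p = 0.205 in limma). Of all 16490 genes, 11.3% were then called higher and 24.8% in either direction. Without counts the precision of values as low as those of FCN1 and CD163 is unknown.

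Of the 9 listed genes, 6 have more than 1 RefSeq row, and the rows did not always move together. The 2 rows of CD68 are both of its RefSeq transcripts, those of CD33 all 3, while CD4 has rows for 4 of 9, CD36 for 4 of 16, CLEC7A for 2 of 7 and CD14 for 2 of 4 curated RefSeq transcripts. Of the 20 rows, 9 had a mean of at least 0.5 FPKM and were tested among 18624 rows, and 3 of them rose (adjusted p under 0.05 in limma), against 4.16% of the rows tested that rose, 4.08% that fell and 8.24% in all. The 3 calls were lost whichever library was left out, and then at most 1 of all rows was called.

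For CD4, NM_000616, the main transcript, had 61.9 and 71.1 FPKM in control cells and 86.3 and 79.5 FPKM in knockdown cells, a log2 difference of 0.32 (adjusted p = 0.124 in limma). NM_001195016, an alternative transcript, had 3.75 and 3.34 FPKM in control cells and 8.53 and 10.6 FPKM in knockdown cells, and rose by 1.21 on the log2 scale (standard error 0.15, adjusted p = 0.0276 in limma). This row made up 5.68% and 4.46% of the CD4 level in control cells and 8.96% and 11.7% in knockdown cells. Its share was thus higher in both knockdown libraries, and with 2 libraries a group this shift of share could not be tested below p = 0.333 by an exact permutation test.

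For CD68, NM_001251 made up 94.0% and 97.6% of the level in control cells and 95.9% and 96.2% in knockdown cells, and rose by 1.15 on the log2 scale (adjusted p = 0.0263 in limma). The minor row NM_001040059 had 2.71 and 1.32 FPKM in control cells and 4.69 and 4.04 FPKM in knockdown cells (log2 difference 0.87, adjusted p = 0.136 in limma). The share of the main row thus overlapped between the groups.

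For CD36, NM_001001548 had 1.04 and 1.16 FPKM in control cells and 3.73 and 3.32 FPKM in knockdown cells, and rose by 1.11 on the log2 scale (adjusted p = 0.0336 in limma). NM_000072 had 0.417 and 0.0904 FPKM in control cells and 1.41 and 0.947 FPKM in knockdown cells (0.80, adjusted p = 0.133 in limma). Both rows were higher in both knockdown libraries, and the second varied more between libraries of a group.

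For CD33, NM_001772, the full-length transcript, had 20.5 and 23.6 FPKM in control cells and 29.0 and 27.7 FPKM in knockdown cells (0.35, adjusted p = 0.101 in limma). NM_001082618, which lacks the exon of the sialic acid binding domain, had 3.44 and 2.85 FPKM in control cells and 4.99 and 3.34 FPKM in knockdown cells, and its groups overlapped (0.30, adjusted p = 0.420 in limma). It made up 9.75% to 13.4% of the CD33 level over the 4 libraries, and the share was neither higher nor lower in both knockdown libraries. For CLEC7A, the row with the higher mean is NR_125336, a non-coding transcript, which made up the whole level in control cells and 61.1% and 90.0% in knockdown cells. NM_022570, the coding row listed, is at 0 in both sh-NC libraries and had 0.357 and 0.0780 FPKM in knockdown cells. For CD14, NM_000591 made up 90.6% to 100% of the level in the 3 libraries where the gene is above 0, and NM_001174104 was at most 0.103 FPKM.

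**Figure D3:**
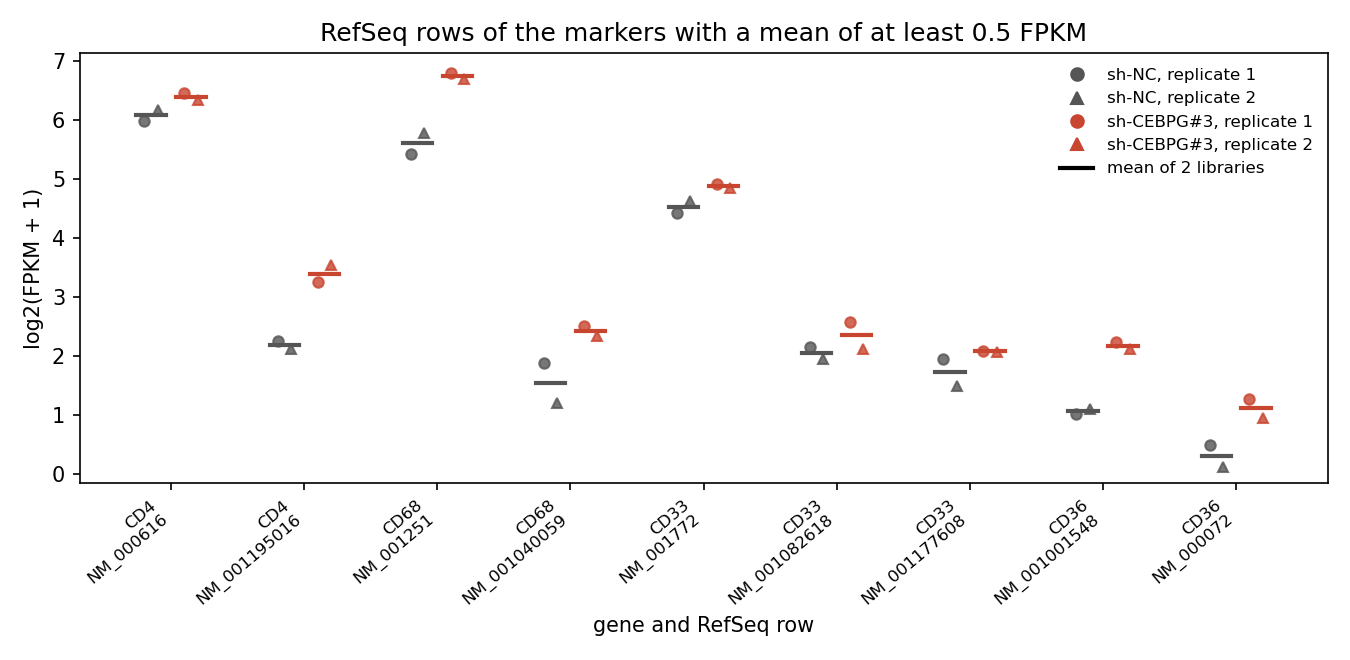
Level of the 9 RefSeq rows of CD4, CD68, CD33 and CD36 with a mean of at least 0.5 FPKM, as log2(FPKM + 1), in every library, with bars for the means of 2 libraries. The groups overlap in NM_001082618 of CD33 and are furthest apart in NM_001195016 of CD4 (1.21) and NM_001251 of CD68 (1.15).

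The same receptor families were then described by lists of other genes. For comparison, 18.5% of all genes tested rose and 23.8% fell, 42.2% in all. Of 14 SIGLEC genes related to CD33, 11 are listed and 4 were tested, all of which rose, with a median log2 fold change of 0.92 against -0.04 for all genes tested. SIGLEC1, a macrophage sialic acid receptor, had 0.0233 and 0.0108 FPKM in control cells and 5.63 and 4.59 FPKM in knockdown cells, and rose by 2.58 on the log2 scale (adjusted p = 4.52e-07 in limma). It was tested because of its level in the knockdown libraries. SIGLEC10, an inhibitory receptor, went from 0.905 and 0.682 to 2.46 and 2.34 FPKM (0.92, adjusted p = 0.000284 in limma), a call lost with the most abundant row of each gene (0.43, adjusted p = 0.0916 in limma).

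Of 20 other scavenger receptors, 17 are listed and 5 were tested, of which 3 rose and 2 were not called (median 0.59). CXCL16, a membrane-bound chemokine that binds oxidised lipoprotein, went from 0.735 and 0.353 to 2.67 and 2.20 FPKM (1.16, adjusted p = 0.000229 in limma). OLR1, another receptor of oxidised lipoprotein and also a C-type lectin, had 0.0201 FPKM and a listed 0 in control cells and 1.17 and 1.21 FPKM in knockdown cells, and it too was tested because of its level there. Of 26 C-type lectin receptors, 18 are listed and 8 were tested, of which 3 rose and 5 were not called (median 0.19). The counts of both lists stand beside 18.5% of all genes tested that rose and 23.8% that fell. CD209, a mannose-binding lectin of dendritic cells and macrophages, went from 2.27 and 2.66 to 10.3 and 9.85 FPKM (1.67, adjusted p = 1.33e-06 in limma). The tested genes of the 3 lists were therefore called higher or not called, and none was called lower. Scavenger receptors under the limit for testing went both ways. SCARF2 (0.592 and 0.650 against 0.441 and 0.252 FPKM), STAB2, AGER, MEGF10 and SSC5D were lower in both knockdown libraries. MSR1, STAB1 and CD163L1 were higher in both, and the groups of the others overlapped. Of all listed genes under the limit for testing, 23.8% were separated as higher and 20.9% as lower.

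Of 40 genes of monocyte and macrophage identity, 36 are listed and 28 were tested, of which 21 rose, 1 fell and 6 were not called (median 0.62). The shares of all genes tested were 18.5% higher and 23.8% lower. LYZ, the secreted lysozyme of myeloid cells, went from 567 and 610 to 3126 and 2982 FPKM (2.37, adjusted p = 1.4e-08 in limma). MPEG1, the pore-forming perforin-2 of macrophages, went from 0.930 and 1.17 to 8.35 and 7.79 FPKM (2.15, adjusted p = 4.61e-07 in limma). ADGRE2, an adhesion receptor of monocytes and neutrophils, fell from 20.2 and 21.4 to 16.6 and 15.6 FPKM (-0.35, adjusted p = 0.00617 in limma), and without sh-CEBPG#3 replicate 2 this call was lost (adjusted p = 0.0548 in limma). Of the 21 genes that rose, 3 had a mean under 0.5 FPKM in control cells.

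Genes that act with the markers went in both directions. Of 34 listed by role, 27 have rows and 21 were tested, of which 7 rose, 5 fell and 9 were not called, with a median of 0.03. Of all genes tested, 18.5% rose and 23.8% fell, with a median of -0.04. Among the partners of CD163, HMOX1, which degrades the haem it takes up, went from 0.948 and 1.19 to 8.60 and 9.33 FPKM (2.27, adjusted p = 2.87e-07 in limma). HP, the haptoglobin of its ligand, went from 0.576 and 0.407 to 3.99 and 2.88 FPKM (1.56, adjusted p = 2.7e-05 in limma), and its mean in control cells alone was under 0.5 FPKM. ADAM17, the protease that sheds CD163, rose from 7.60 and 7.22 to 14.6 and 13.7 FPKM (0.85, adjusted p = 4.25e-05 in limma). BLVRB, of the same list, had 28.7 and 29.1 against 31.4 and 35.3 FPKM and was not called (0.20, adjusted p = 0.0749 in limma).

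Among the partners of CD14, TLR2 rose from 3.50 and 3.80 to 7.04 and 5.95 FPKM (0.69, adjusted p = 0.00063 in limma). LY96 had 2.00 and 1.19 FPKM against 2.31 and 2.02 FPKM (0.30, adjusted p = 0.144 in limma), and without sh-NC replicate 1 it was called (0.53, adjusted p = 0.00697 in limma). TLR4 was under the limit for testing, at 0.292 to 0.410 FPKM, with overlapping groups. TICAM2, of the same list and also under that limit, had 0.544 and 0.745 FPKM against 0.325 and 0.289 FPKM. It was thus lower in both knockdown libraries, as were 20.9% of the listed genes under the limit.

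The kinase and the lipase below CLEC7A were lower upon knockdown. SYK fell from 26.8 and 30.9 to 23.8 and 21.2 FPKM (-0.34, adjusted p = 0.0138 in limma), a call that was lost without sh-CEBPG#3 replicate 2 (-0.26, adjusted p = 0.118 in limma), with no filter (adjusted p = 0.0663 in limma) and with the most abundant row of each gene (adjusted p = 0.0502 in limma). PLCG2 fell from 13.4 and 13.7 to 9.79 and 9.80 FPKM (-0.43, adjusted p = 0.00211 in limma). CARD9, the adaptor of the same pathway, had 27.1 and 26.5 FPKM against 32.4 and 33.3 FPKM and rose (0.28, adjusted p = 0.0112 in limma), a call that was lost without either sh-CEBPG#3 replicate (adjusted p = 0.0549 and 0.0900 in limma). PTPN6, a phosphatase that CD33 recruits, rose from 94.1 and 99.5 to 116 and 112 FPKM (0.23, adjusted p = 0.0233 in limma). That call was also lost without either sh-CEBPG#3 replicate (log2 fold changes 0.20 and 0.26). PTPN11, a phosphatase of the same list, had 34.7 and 36.9 against 32.9 and 31.1 FPKM and was not called (-0.16, adjusted p = 0.128 in limma). Of 4 listed proteases that cleave VCAN, 2 were tested and both fell, while ADAMTS4 and ADAMTS5 were under the limit for testing with overlapping groups. ADAMTS1 fell from 1.76 and 1.75 to 0.487 and 0.398 FPKM (-0.93, adjusted p = 0.000311 in limma), and ADAMTS9 from 1.58 and 1.74 to 0.633 and 0.517 FPKM (-0.76, adjusted p = 0.00118 in limma).

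Markers of other cell types were counted in the same way, beside 18.5% of all genes tested called higher and 23.8% called lower. Of 12 granulocyte precursor markers, 10 are listed and 7 were tested, of which 5 rose and none fell, and their summed level went from 4134 and 4401 to 8839 and 8319 FPKM. Of 12 dendritic cell markers, 7 are listed and 4 were tested, of which 2 rose, with a summed level of 25.9 and 27.3 against 33.4 and 27.7 FPKM. Of 12 progenitor markers, 5 are listed and 3 were tested, of which 1 rose and 1 fell, with a summed level of 133 and 141 against 132 and 122 FPKM, and CD34 and PROM1 have no row. GATA2, a progenitor transcription factor, fell from 8.92 and 10.7 to 3.08 and 3.37 FPKM (-1.35, adjusted p = 8.68e-06 in limma). CD38, an ectoenzyme, rose from 8.08 and 7.92 to 10.9 and 10.5 FPKM (0.38, adjusted p = 0.00505 in limma), a call lost with the most abundant row of each gene (adjusted p = 0.157 in limma). MYB, a progenitor transcription factor, had 116 and 122 against 118 and 108 FPKM and was not called (adjusted p = 0.427 in limma). The T and NK cell markers summed to 56.5 and 57.4 against 66.1 and 67.2 FPKM, with 1 higher and 1 lower of 2 tested. The B cell markers summed to 3.13 and 3.30 against 2.85 and 2.99 FPKM, with 1 lower of 2 tested. The summed granulocyte, dendritic, erythroid and platelet, and T and NK cell levels were thus higher in both knockdown libraries. The B cell and progenitor sums were lower in both. Single genes made up most of some sums. These were TFRC of the erythroid and platelet sum, NKG7 of the T and NK cell sum, MYB of the progenitor sum and IL3RA of the dendritic sum. TFRC and MYB were not called. IL3RA, 1 of the 2 dendritic cell markers that rose (0.28, adjusted p = 0.0448 in limma), was called under 7 of 12 alternative settings. With the most abundant row of each gene the direction of IL3RA reversed (-0.0089). A list of 10 interferon response genes moved with the groups as well, with all 9 tested genes called higher and a summed level of 37.95 and 41.2 against 676 and 661 FPKM. Of these 9, IFIT1 and IFI44L passed the limit for testing only through their level in knockdown cells, and MX1, the gene not tested, had overlapping groups. The part of these lists in the values of the markers was not tested.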

How the data were processed

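Total RNA of MV4-11 cells was extracted with Trizol and made into libraries with the Illumina TruSeq RNA kit. The authors removed low-quality reads and mapped the rest with HISAT (HISAT2 2.0.5 on hg38 in the submitters' processing notes) and deposited FPKM values, 1 per RefSeq transcript and library. The program that computed them and the use of strand are not given in the sources used here. The table lists 28780 rows, of which 199 have no value. The study used DESeq2, which takes counts, so it was not run. Rows were summed by gene symbol, and log2(FPKM + 1) was fitted with limma 3.58.1 in R 4.3.3 (lmFit, eBayes with a trend, no block) over genes whose mean reached 0.5 FPKM, with Benjamini-Hochberg adjustment. Rows were fitted in the same way. An exact permutation test cannot give a p under 0.333 here, so every p rests on the variance model. Of 12 housekeeping genes none was at 0, but 32 genes were at 0 in 1 library and at 1 FPKM or more in the other of its group. Of 1027 rows under 0.06 FPKM in sh-NC, at most 0.974% shared a ratio between the libraries, and no whole-read steps were found. The script was tested on simulated data. Positions and promoter sequences come from RefSeq (GRCh38.p14), the build of hg38, and exons from GENCODE release 44 served to leave exonic bases out of the sequences shown.

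The markers and lists were chosen with earlier results of these data known. Named genes are the markers, CEBPG, the 2 largest increases and decreases of each list among genes called with no overlap between groups, and the 2 highest rows of each marker. Other genes (partners, TMCO6, lineage markers, scavenger receptors under the limit for testing) were chosen after their values were seen. Of the genes the rule gives for lists of other cell types, PRTN3, ELANE, CCR7 and PAX5 are given only by counts. The same holds for CSF1R of the line markers and for IFI6 and OAS1 of the interferon response genes.

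The alternatives were other pseudocounts (0.1 and 0.01), a filter at 1 FPKM or none, quantile normalization or equal library totals, a replicate block, each library left out, and the most abundant row per gene. Replicate numbers come from the sample titles.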

Additional observations from a re-analysis of the deposited data

How the results depend on the processing

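The 4 tested markers kept their direction under all 12 alternatives, with log2 fold changes of 1.00 to 1.29 for CD68, 1.11 to 1.70 for CD36, 0.31 to 0.49 for CD4 and 0.31 to 0.42 for CD33. CD68 and CD36 were called under all 12, CD4 under 11 and CD33 under 10. CEBPG lay between -0.87 and -0.70 and was called under all 12. The number of markers called, 4, was 8 with no filter and 2 with the most abundant row per gene, where 2864 genes were called in all against 5128, and it was 3 to 4 with a library left out. The number past the threshold of the study, 2, was 1 to 2 with a library left out, and 1 without sh-NC replicate 1. The number of rows called, 3, was 5 with quantile normalization, 5 with equal totals, 0 with no filter, 0 with the replicate block and 0 with each library left out. In limma 11, 6 and 3 to 7 rows had an unadjusted p under 0.05 in those 3 kinds of fit with 0 called. What caused these shifts was not tested. Among single genes of the lists, IL3RA (0.28) reversed with the most abundant row, to -0.0089. The 43 genes called in the 5 lists of receptors, identity genes and partners were 33 to 48 over the alternatives, fewest with the most abundant row and most with no filter, and 39 to 45 with a library left out. For the 5 low markers the difference depends on the pseudocount: CD14 (0.79) was 2.52 with 0.1 and 4.31 with 0.01, and CLEC7A (0.85) was 2.92 and 4.76.

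The deviations of same-numbered libraries from the group means correlated at 0.0606 over the genes. With 2 libraries a group this value cannot show whether same-numbered libraries share more than a number. A replicate block gave 4761 called genes against 5128, kept the calls of the 4 markers and, among the genes named in the text, ended those of PTPN6 (adjusted p = 0.117 in limma) and NCAM1 (adjusted p = 0.0509 in limma). Of all rows, 0.601% were called with it. Without counts the precision of low values is unknown.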

Other observations

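Of the minor RefSeq rows of CD36 and CD4, 3 went against their gene and the others were higher with it. For CD36, NM_001127444 had 0.0469 and 0.0576 FPKM in control cells and 0.0166 and 0.0453 FPKM in knockdown cells. NR_110501, a non-coding row of the same gene, had 0.0369 and 0.0561 FPKM in control cells, and in knockdown cells it is listed at 0 and 0.0110 FPKM. For CD4, NM_001195014 had 0.159 and 0.251 FPKM in control cells and 0.135 and 0.143 FPKM in knockdown cells. All 3 rows were lower in both knockdown libraries while the sums of their genes were higher, and at these levels none was tested. Of the listed genes under the limit for testing, 20.9% were separated in this lower direction. The share of all rows separated in this way was not counted.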
